A study of Mus musculus with 39 samples.

Results

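The response of the liver to a Western diet was compared between CD163 knockout and wildtype mice, gene by gene. All 39 livers of the study enter the comparison, 19 from knockout and 20 from wildtype mice, with 1 library per mouse. The quantity of interest is the interaction, the log2 fold change of Western diet over chow in knockout livers minus the same log2 fold change in wildtype livers. A positive value means a response that is more upward, or less downward, in knockout livers. The 4 groups were 15 knockout mice on Western diet, 4 knockout mice on chow, 15 wildtype mice on Western diet and 5 wildtype mice on chow. All were males on the C57BL/6NTac background, and the wildtype mice were littermates from heterozygous crosses of the Cd163tm1(KOMP)Vlcg allele. Feeding began at 6 weeks of age and lasted 8 weeks, and the Western diet mice also had fructose in their water whereas chow mice had plain water, so diet and fructose cannot be told apart. The knockout was carried by every cell and was studied as 1 allele. RNA came from whole snap-frozen liver, in which fewer cells of a type and less RNA per cell cannot be told apart.

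CD163 is a scavenger receptor of macrophages, in liver mainly of the resident Kupffer cells, that takes up haemoglobin bound to haptoglobin. A Western diet supplies cholesterol, fat and sugar. Cholesterol in the diet holds the transcription factor SREBP2 in the endoplasmic reticulum and so lowers the genes of cholesterol synthesis, whereas sugar acts through SREBP1c and ChREBP and raises genes of fructose breakdown and fat synthesis. An interaction test asks whether such a diet response differs with genotype, and a gene called in 1 genotype and not in the other does not answer that question.

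The diet responses of knockout and wildtype livers mostly ran in the same direction, and no gene passed the test of a difference between them. With all 39 livers, 0 of 15296 tested genes were called in the interaction by edgeR's quasi-likelihood test (0%, adjusted p under 0.05), and 285 genes, 1.86%, had an unadjusted p under 0.05. DESeq2 also called 0 genes, with 318 at an unadjusted p under 0.05, and limma voom called 0. With 35 livers, leaving out 1 library per group that resembled the other diet, edgeR again called 0 of 15461 genes (0%), with 503 genes, 3.25%, at an unadjusted p under 0.05, and DESeq2 and limma voom called 0 with 536 and 467 such genes.

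The genotype labels held for Cd163 itself. It was at 0 to 0.661 CPM (library-size-scaled counts, with TMM normalization) in knockout Western diet livers, with a median of 0.377 CPM, and at 0.440, 0.746, 0.678 and 0.540 CPM in knockout chow livers. It was at 2.59 to 15.8 CPM in wildtype Western diet livers, with a median of 7.70 CPM, and at 12.5, 13.1, 4.95, 5.21 and 7.94 CPM in wildtype chow livers. Every wildtype library lay above every knockout library. The interaction of Cd163 was -0.64 ± 0.61 (log2, SE; 95% interval -1.86 to 0.59). Hepatocyte and Kupffer cell markers were present in every group: Alb had a median of 28460 and 30666 CPM in knockout Western diet and chow livers and of 30840 and 33793 CPM in wildtype Western diet and chow livers, and Clec4f had a median of 98.6, 83.6, 91.3 and 87.0 CPM in the same order of groups. Library totals were 8578865 to 30438808 counts, with a median of 14573193. The nearest pair of libraries, wildtype Western diet L and M, differed by 3.98 times the sampling noise in a chi-square per gene, so no library was counted as a copy of another. The second nearest pair differed by 10.4 times and the median pair by 54.3 times, so L and M stood nearer to each other than any other pair, and whether their mice were related is not given in the sources used here.

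In each group 1 library resembled the other diet, namely those labelled knockout Western diet M, knockout chow D, wildtype Western diet A and wildtype chow A. Apoa4, an apolipoprotein of fat-rich particles, was at 90.1 CPM in the library labelled knockout Western diet M and at 518 to 2124 CPM in the other 14 knockout Western diet livers. It was at 1007 CPM in the library labelled knockout chow D and at 89.2, 71.5 and 106 CPM in knockout chow A, B and C. Among wildtype livers, the library labelled Western diet A was at 77.1 CPM against 333 to 2404 CPM in the other 14, and the library labelled chow A was at 190 CPM against 69.8, 56.6, 87.5 and 116 CPM in chow B to E. In Apoa4, 3 of these 4 libraries thus lay within the range of the other diet of their genotype, and wildtype chow A lay between the diets. No library was relabelled, and the cause of their place was not tested. Results are given with all 39 livers and with the other 35. Because these 4 libraries were picked for their diet readout, leaving them out favours larger diet responses and diets that do not overlap. The diet counts, diet p values and ranges of the 35-library fit are therefore a description and not a test of the diet effect.

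**Figure D1:**
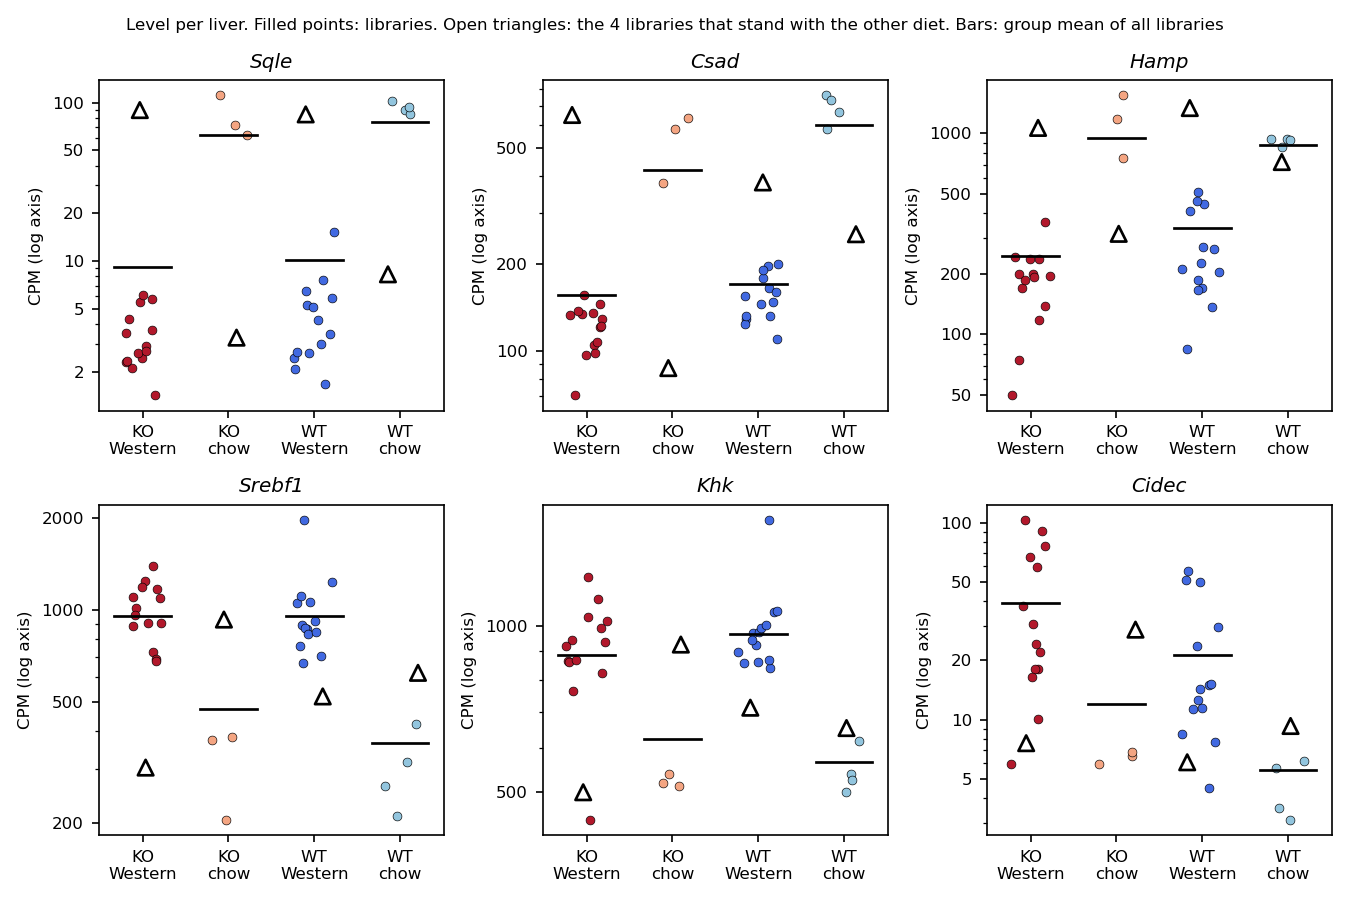
Level of 6 genes in each of the 39 livers, as CPM on a log axis, with knockout Western diet, knockout chow, wildtype Western diet and wildtype chow from left to right. Points are libraries, triangles are the 4 libraries that resembled the other diet, and bars are group means over all libraries; for Sqle, Csad and Hamp the chow livers lie above most Western diet livers in both genotypes, and for Srebf1, Khk and Cidec below them.

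Cholesterol synthesis genes had like median responses in both genotypes. Most of them were called lower in each genotype only once the 4 libraries were left out. Of 25 listed genes of cholesterol synthesis and uptake, all tested, the median log2 fold change was -1.06 in knockout and -1.0 in wildtype livers with all 39, beside medians over all tested genes of -0.000452 and -0.00323. With all 39 livers 0 of the 25 were called lower in knockout and 6 in wildtype livers, against 0.00654% and 0.615% of all tested genes. The diet response averaged over the genotypes was lower in 23 of these 25 genes, against 6.77% of all tested genes called lower (7.84% were called higher). In the other 35 livers the medians were -1.50 and -1.36, and 22 genes fell in knockout and 23 in wildtype livers, where 7.5% and 4.4% of all tested genes were called lower. The interaction was positive in 13 and negative in 12 of the 25 genes in both fits, and no member had an interaction p under 0.05.

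Sqle, squalene epoxidase of the cholesterol pathway, was at 1.42 to 89.7 CPM with a median of 2.90 CPM in knockout Western diet livers, and at 62.2, 112, 71.9 and 3.29 CPM in knockout chow livers. It was at 1.68 to 84.3 CPM with a median of 4.26 CPM in wildtype Western diet livers, and at 8.26, 90.4, 102, 84.2 and 94.3 CPM in wildtype chow livers. The highest Western diet value and the lowest chow value of each genotype were those of the 4 libraries. Without these, the highest Western diet value was 6.12 CPM in knockout and 15.3 CPM in wildtype livers. The diets then did not overlap, which follows in part from how the 4 libraries were picked. The log2 fold change without the 4 libraries was -4.52 ± 0.34 in knockout and -4.25 ± 0.31 in wildtype livers (edgeR adjusted p = 3.41e-11 and 2.00e-11), and the interaction was -0.26 ± 0.53 (95% interval -1.34 to 0.81). With all 39 livers it was -2.75 ± 0.85 and -2.89 ± 0.80, neither past the threshold (adjusted p = 0.124 and 0.0562), with an interaction of 0.14 ± 1.29 (95% interval -2.49 to 2.76). The fall of Sqle thus passed the threshold in each genotype only once the 4 libraries were left out. Its averaged response passed with all 39 (-2.82 ± 0.58, edgeR adjusted p = 0.00237).

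Cyp51, lanosterol demethylase, was at 21.0 to 224 CPM with a median of 31.8 CPM in knockout Western diet livers, and at 181, 183, 173 and 37.4 CPM in knockout chow livers. In wildtype livers it was at 24.7 to 210 CPM with a median of 34.3 CPM on Western diet, and at 44.3, 219, 236, 233 and 214 CPM on chow. Without the 4 libraries no Western diet liver exceeded 46.8 CPM in knockouts or 78.6 CPM in wildtypes, and the diets did not overlap in either genotype. The log2 fold changes were then -2.42 ± 0.21 and -2.53 ± 0.19 (adjusted p = 6.16e-10 and 2.00e-11), with an interaction of 0.11 ± 0.32 (95% interval -0.54 to 0.75). Hmgcs1, which makes the precursor of mevalonate, fell by 1.90 ± 0.32 in knockout and by 2.05 ± 0.29 in wildtype livers on the log2 scale without the 4 libraries (adjusted p = 0.000217 and 1.90e-05), with an interaction of 0.15 ± 0.49. Msmo1, a sterol oxidase of the same pathway, changed by -2.72 ± 0.21 and -2.81 ± 0.19 (adjusted p = 3.41e-11 and 1.74e-12), with an interaction of 0.10 ± 0.32.

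Since the cholesterol genes moved together, the promoters of Hmgcs1 and Cyp51 are shown, from 250 bases before to 50 bases after the start, as RefSeq gives them on GRCm38.p6 and read 5′ to 3′ on the strand of the gene. Capitals mark the letters TCACNCCAC, a form of the sterol regulatory element, and CCAAT, the core of the NF-Y site, on either strand (CCAAT on the other strand reads ATTGG). Hmgcs1 lies at chr13:119690101-119690400 on the plus strand and Cyp51 at chr5:4104648-4104947 on the minus strand.
Hmgcs1: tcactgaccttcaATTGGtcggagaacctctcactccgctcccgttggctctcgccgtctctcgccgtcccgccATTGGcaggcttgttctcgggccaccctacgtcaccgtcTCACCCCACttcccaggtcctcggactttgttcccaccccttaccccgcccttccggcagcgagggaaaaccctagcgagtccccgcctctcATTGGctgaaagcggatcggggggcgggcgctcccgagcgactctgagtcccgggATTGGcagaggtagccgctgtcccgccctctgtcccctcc
Cyp51: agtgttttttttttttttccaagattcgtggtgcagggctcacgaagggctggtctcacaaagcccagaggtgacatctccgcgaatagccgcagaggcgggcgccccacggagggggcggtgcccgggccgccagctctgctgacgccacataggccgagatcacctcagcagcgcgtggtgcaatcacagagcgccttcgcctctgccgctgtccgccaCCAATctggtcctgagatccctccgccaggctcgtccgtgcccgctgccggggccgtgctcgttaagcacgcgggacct
Of the 25 listed genes, 17 matched RefSeq entries with 20 promoters. CCAAT was in 16 of these 20, 80%, against 37.4% of 32851 mouse promoters of the same length. TCACNCCAC was in 1 of the 20, that of Hmgcs1, and in 1.24% of all. The motifs do not overlap each other, and a match is a description of letters and not of binding.

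Some genes of sugar breakdown and fat synthesis rose on Western diet. With all 39 livers, 10 of 17 listed genes of fructose and glucose metabolism rose in the averaged response, against 7.84% of all tested genes. In that fit 0 of the 17 were called higher in knockout and 4 in wildtype livers, against 0% and 0.771% of all tested genes. In the 35 livers 8 rose in knockout and 7 in wildtype livers, where 9.69% and 4.26% of all tested genes were called higher, and none fell. The list medians were 0.52 in knockout and 0.47 in wildtype livers, beside 0.0164 and 0.00359 over all genes. Khk, ketohexokinase, which takes up fructose carbon by phosphorylation, was at 445 to 1229 CPM with a median of 921 CPM in knockout Western diet livers, and at 513, 539, 518 and 927 CPM in knockout chow livers. It was at 711 to 1563 CPM with a median of 943 CPM in wildtype Western diet livers, and at 653, 540, 619, 527 and 500 CPM in wildtype chow livers. The diets overlapped in knockout livers and did not overlap in wildtype livers with all 39. Khk rose by 0.77 ± 0.17 in wildtype livers with all 39 (adjusted p = 0.0198), whereas its log2 fold change in knockout livers was 0.51 ± 0.18 (adjusted p = 0.145). Its 2 values without the 4 libraries were 0.83 ± 0.17 in knockout and 0.86 ± 0.15 in wildtype livers (adjusted p = 0.00144 and 0.000334), with an interaction of -0.02 ± 0.22 (95% interval -0.46 to 0.42). Tkfc, the triokinase that acts after Khk and aldolase, likewise had 1.04 ± 0.20 and 1.08 ± 0.18 without the 4 libraries (adjusted p = 0.000749 and 0.000104). Pklr, liver pyruvate kinase and a target of ChREBP, had 1.31 ± 0.34 in knockout and 1.74 ± 0.31 in wildtype livers (adjusted p = 0.00882 and 0.000409), with an interaction of -0.42 ± 0.41.

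Srebf1, which encodes SREBP1c, was at 304 to 1395 CPM with a median of 960 CPM in knockout Western diet livers, and at 384, 374, 205 and 929 CPM in knockout chow livers. It was at 520 to 1976 CPM with a median of 868 CPM in wildtype Western diet livers, and at 621, 265, 211, 317 and 420.7 CPM in wildtype chow livers. Every Western diet liver, from 681 CPM in knockouts and 671 CPM in wildtypes, lay above every chow liver once the 4 libraries were left out. Its log2 fold changes were then 1.66 ± 0.27 and 1.70 ± 0.23 (adjusted p = 8.71e-05 and 6.44e-06), and the interaction was -0.04 ± 0.31 (95% interval -0.67 to 0.60). Scd1, stearoyl-CoA desaturase and a target of SREBP1c, had medians of 20467 CPM in knockout Western diet and 6018 CPM in knockout chow livers, and of 15988 CPM in wildtype Western diet and 5282 CPM in wildtype chow livers. Its interaction was -0.53 ± 0.56 with all 39 livers and 0.19 ± 0.48 without the 4, so the sign depended on these libraries. Fasn, fatty acid synthase, was more scattered, with 631 to 2730 CPM in knockout Western diet and 718, 1952, 619 and 1352 CPM in knockout chow livers, against 739 to 6317 CPM in wildtype livers on Western diet and 950, 710, 731, 496 and 824 CPM in those on chow. Its diets overlapped in both genotypes, and its log2 fold change, 0.59 ± 0.51 in knockout and 1.25 ± 0.47 in wildtype livers without the 4 libraries, passed in neither (adjusted p = 0.447 and 0.0933). With all 39 livers, 0 of 22 listed genes of fatty acid and triglyceride synthesis were called higher in knockout and 3 in wildtype livers. Of all tested genes 0% and 0.771% were called higher there. Without the 4 libraries 5 and 6 of the 22 were called higher, against 9.69% and 4.26% of all tested genes. The interaction was positive in 3 of 22 genes with all 39 livers and in 9 of 22 without the 4, where it was positive in 50.8% and 54.6% of all tested genes.

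The sterol transporter genes Abcg5 and Abcg8 rose and the taurine synthesis gene Csad fell in both genotypes without the 4 libraries. Abcg5, a subunit of the transporter that moves sterols into bile and a target of the sterol receptor LXR, was at 71.6 to 393 CPM with a median of 317 CPM in knockout Western diet livers, and at 99.4, 72.9, 61.9 and 296 CPM in knockout chow livers. It was at 70.1 to 479 CPM with a median of 274 CPM in wildtype Western diet livers, and at 203, 64.1, 48.5, 74.0 and 72.7 CPM in wildtype chow livers. The diets did not overlap in the 35 livers, and Abcg5 rose by 2.08 ± 0.26 in knockout and 2.20 ± 0.23 in wildtype livers (adjusted p = 1.40e-06 and 3.36e-08), with an interaction of -0.13 ± 0.29 (95% interval -0.72 to 0.47). Its partner subunit Abcg8 rose by 1.79 ± 0.27 and 1.85 ± 0.24, with an interaction of -0.05 ± 0.32. Csad, an enzyme of the synthesis of taurine, with which mouse bile acids are conjugated, had 70.0 to 652 CPM with a median of 128 CPM in knockout Western diet livers and 637, 379, 583 and 87.1 CPM in knockout chow livers. It had 109 to 381 CPM with a median of 155 CPM in wildtype Western diet livers and 253, 764, 670, 583 and 734 CPM in wildtype chow livers. Csad had the smallest diet p of all genes in both genotypes without the 4 libraries, at -2.12 ± 0.15 and -2.16 ± 0.14 (adjusted p = 3.60e-12 and 1.38e-13), with an interaction of 0.04 ± 0.23 (95% interval -0.43 to 0.50). Cyp7a1, the rate-limiting enzyme of bile acid synthesis, had log2 fold changes of -0.85 ± 0.41 and -1.03 ± 0.36 that passed in neither genotype (adjusted p = 0.147 and 0.0717).

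Genes of lipid storage, fatty acid uptake and fatty acid oxidation were not called in the interaction in either fit. For lipid droplets, uptake and steatosis 8 of 23 genes rose in knockout and 5 in wildtype livers, and for fatty acid oxidation and PPARA targets 14 of 24 and 5 of 24, all without the 4 libraries, where 9.69% of all tested genes were called higher in knockout and 4.26% in wildtype livers. More calls in knockout than in wildtype livers were thus also found over all genes of this fit. With all 39 livers 0 genes of either list were called in knockout livers, and 1 of the lipid droplet list and 0 of the oxidation list in wildtype livers. Of all tested genes 0% were called higher in knockout and 0.771% in wildtype livers there. The interaction was positive in 18 of 23 and 22 of 24 genes of these lists, against 54.6% of all tested genes, with list medians of 0.17 and 0.21 and no member at an interaction p under 0.05. With all 39 livers the lipid droplet list was positive in 9 of 23 genes and the oxidation list in 19 of 24, with medians of -0.05 and 0.08 against 50.8% of all tested genes positive, so the lipid droplet list turned its sign with the 4 libraries. Cidec, a protein of large lipid droplets, was at 5.94 to 104 CPM with a median of 24.2 CPM in knockout Western diet livers, and at 5.91, 6.51, 6.87 and 28.6 CPM in knockout chow livers. It was at 4.51 to 56.8 CPM with a median of 14.2 CPM in wildtype Western diet livers, and at 9.27, 3.57, 6.19, 5.70 and 3.09 CPM in wildtype chow livers. The diets overlapped in both genotypes. Cidec rose without the 4 libraries by 2.72 ± 0.83 and 2.28 ± 0.72 (adjusted p = 0.0230 and 0.0438), with a wide interaction of 0.44 ± 0.98 (95% interval -1.56 to 2.44). Cd36, a fatty acid transporter, rose in knockout livers by 2.62 ± 0.74 (adjusted p = 0.0152) and had 1.63 ± 0.61 in wildtype livers (adjusted p = 0.0888), while its interaction was 0.99 ± 0.84 (unadjusted p = 0.248). Cpt1a, which admits fatty acids to mitochondria, rose by 0.95 ± 0.20 and 0.82 ± 0.17 (adjusted p = 0.00164 and 0.00239), with an interaction of 0.13 ± 0.25.

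**Figure D2:**
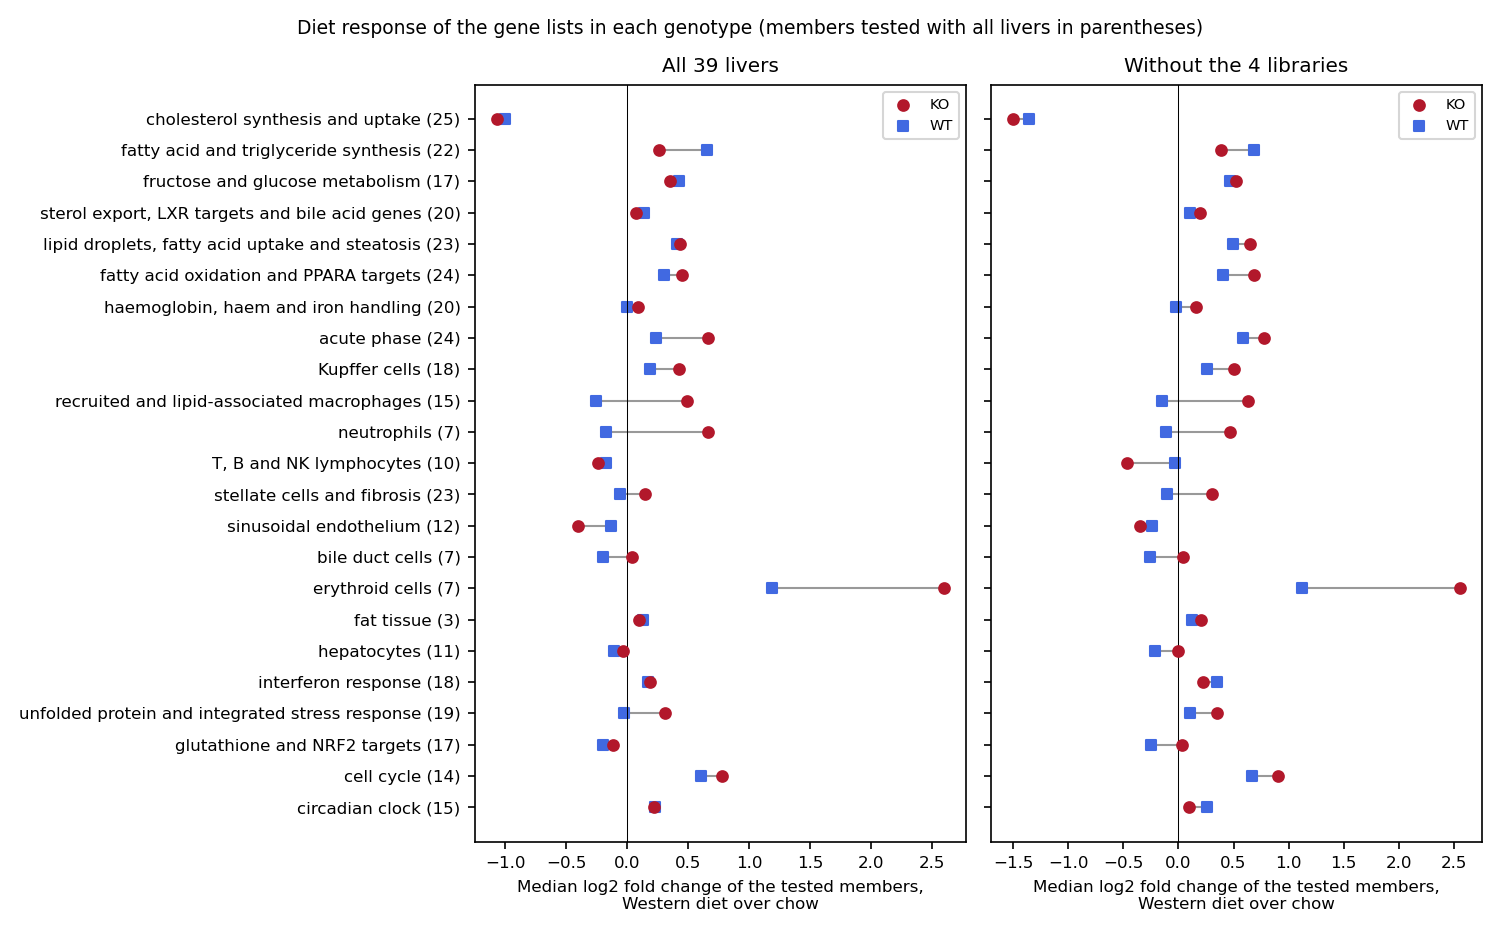
Median log2 fold change of Western diet over chow of the tested members of 23 gene lists, for knockout livers as circles and wildtype livers as squares, with all 39 livers on the left and without the 4 libraries on the right. The cholesterol list lies near -1 in both genotypes with all 39 livers, and the circles and squares lie farthest apart for the erythroid list, at 2.59 in knockout and 1.18 in wildtype livers.

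Genes of haem and iron handling, the field of CD163, showed no difference of the diet responses that passed. Hamp, which encodes the iron hormone hepcidin, was at 49.7 to 1065 CPM with a median of 194 CPM in knockout Western diet livers, and at 1551, 753, 1176 and 316 CPM in knockout chow livers. It was at 84.5 to 1337 CPM with a median of 228 CPM in wildtype Western diet livers, and at 720, 854, 942, 937 and 929 CPM in wildtype chow livers. In the 35 livers the diets did not overlap, since the highest Western diet liver was at 360 CPM in knockouts and at 509 CPM in wildtypes. Hamp then fell by 2.62 ± 0.35 in knockout and by 1.77 ± 0.33 in wildtype livers on the log2 scale (adjusted p = 7.79e-06 and 0.000734), and the interaction was -0.84 ± 0.54 (95% interval -1.95 to 0.26, unadjusted p = 0.130). Hp, haptoglobin, had interactions of 0.62 ± 0.55 with all 39 and 0.50 ± 0.63 without the 4, and Hmox1, the haem oxygenase, 0.57 ± 0.48 and 0.39 ± 0.54. Slc40a1, the iron exporter ferroportin, stayed between 40.2 and 114 CPM in all livers, with interactions of 0.10 ± 0.23 and 0.18 ± 0.27. Of the 20 tested genes of this list none was called in the interaction, and 14 of the 20 intervals without the 4 libraries lay within 1 log2 unit of 0. Over all tested genes of that fit 10260 of 15461 intervals, 66.4%, lay there, a like share.

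Across all genes the 2 diet responses mostly had the same sign, and they correlated more closely in genes of higher level. The log2 fold changes had a Pearson correlation of 0.621 and a Spearman correlation of 0.602 over 15296 genes with all 39 livers, and of 0.727 and 0.674 over 15461 genes without the 4 libraries. At a mean of at least 10 CPM the Pearson correlation was 0.769 over 8258 genes and 0.853 over 8232 genes. These are correlations across genes, which are not independent replicates, and the genotypes share no library in them. The same sign held in 73.7% of all genes with 39 livers and in 77.2% with 35. Of the 212 genes called for diet in wildtype livers with all 39, 212 had the same sign in knockout livers. With 35 livers 98.7% of the 1339 wildtype calls and 98.0% of the 2657 knockout calls had the same sign in the other genotype.

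The intervals of the interaction limit how far the responses can differ. Either bound lay a median of 0.47 log2 units from the estimate with all 39 livers and 0.51 without the 4. Of the 2234 genes called for diet averaged over the genotypes with all 39 livers, 1800, 80.6%, had an interaction interval within 1 log2 unit of 0. Over all tested genes of that fit the share was 71.9%. In the 35-library fit this was 3597 of 4622 genes, 77.8%, against 66.4% of all tested genes. There 16% of all tested genes were called higher and 13.9% lower in the averaged response. For the called genes whose intervals reach beyond 1 log2 unit, the data allow a difference of responses larger than that. Within 0.5 log2 units of 0 lay 1011 of the 2234 intervals, 45.3%, and 1638 of the 4622, 35.4%. Of all tested genes 37.5% and 30.2% lay there. The averaged diet response had a median size of 0.16 and 0.217 over all tested genes in these fits. An interval within 1 log2 unit can thus still hold a response that is absent in 1 genotype. No called interaction is therefore not the same as equal responses.

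**Figure D3:**
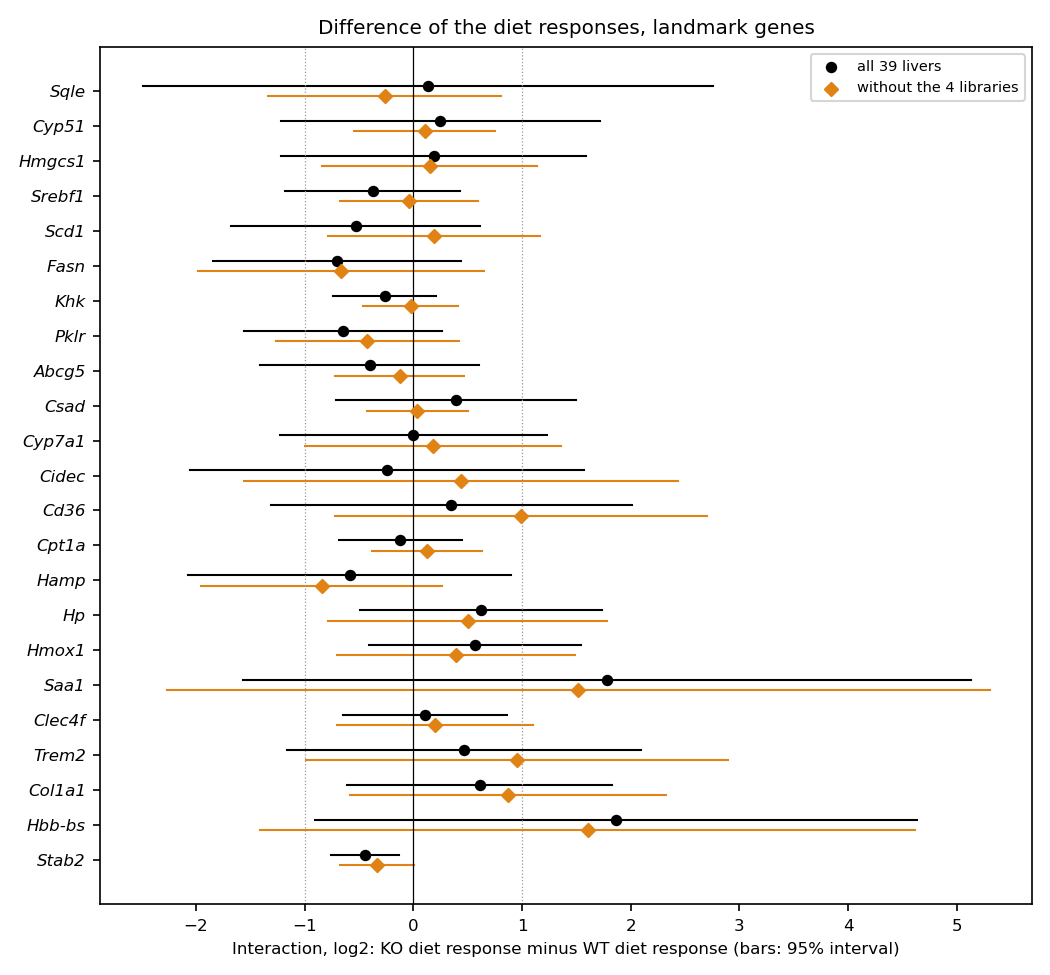
Interaction of 23 landmark genes, as the log2 fold change of Western diet over chow in knockout livers minus that in wildtype livers, with 95% intervals as bars, for all 39 livers as black circles and without the 4 libraries as orange diamonds. Dotted lines mark 1 log2 unit on either side; Stab2 with all 39 livers, at -0.44, is the gene shown whose interval leaves out 0, and the intervals of Saa1 and Hbb-bs are the widest.

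The count of genes called in 1 genotype did not measure the difference of the responses. With all 39 livers, 1 gene was called for diet in knockout livers, 0.00654% of those tested and lower, while 0% were called higher. In wildtype livers 118 genes, 0.771%, were called higher and 94 genes, 0.615%, lower. The order turned without the 4 libraries, with 2657 genes called in knockout and 1339 in wildtype livers. Leaving out single libraries also moved these counts, though less far. Without knockout chow D alone 1408 genes were called in knockout and 325 in wildtype livers, and without wildtype Western diet A alone 13 and 501. Without knockout Western diet M 203 genes were called higher and 223 lower in knockout livers, against 312 calls in wildtype livers, and without wildtype chow A the counts were 1 and 556. Without wildtype chow B, C, D or E in turn the wildtype count was 0, 11, 6 or 26. In the 35-library fit, in which knockout chow has 3 libraries, leaving out knockout chow B as well lowered the knockout count to 731, against 1390 in wildtype livers, and leaving out wildtype chow C or D lowered the wildtype count to 607 or 596, against 2604 or 2653 in knockout livers. The interaction had 0 called genes in each of these fits.

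**Figure D4:**
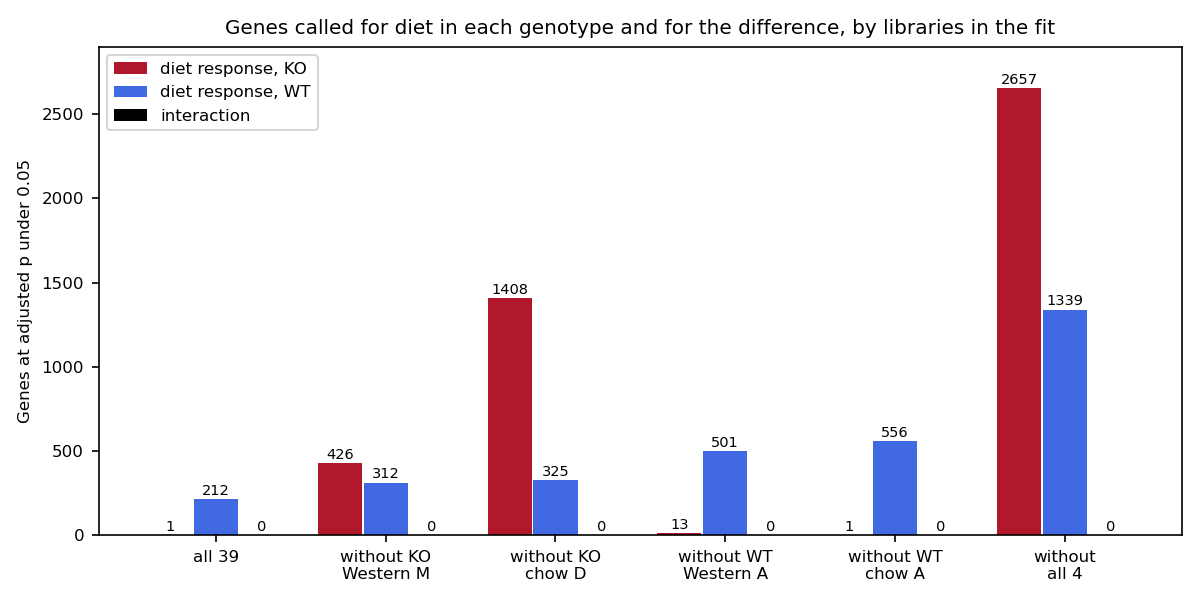
Genes at an adjusted p under 0.05 for the diet response in knockout livers (red), for that in wildtype livers (blue) and for the interaction (black), by the libraries in the fit. The knockout count is 1 with all 39 livers and 2657 without the 4 libraries, the wildtype count is 212 and 1339, and the interaction is 0 in all 6 fits shown.

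The lists of called genes overlapped in part. Without the 4 libraries 902 genes were called in both genotypes, 33.9% of the knockout list and 67.4% of the wildtype list, 481 of them higher in both and the rest lower in both. Of the 1755 genes called in knockout livers alone, 1703 had the same sign in wildtype livers, and 221 had an interaction p under 0.05. Of the 437 genes called in wildtype livers alone, 420 had the same sign in knockout livers, and 32 had an interaction p under 0.05. Over all 15461 tested genes 503, 3.25%, had such a p. Picking genes called in 1 genotype alone favours a small interaction p. The 1498 genes called higher in knockout livers had median log2 fold changes of 0.53 in knockout and 0.31 in wildtype livers, and the 1159 called lower there had -0.58 and -0.35. The 659 genes called higher in wildtype livers had medians of 0.64 in knockout and 0.56 in wildtype livers, and the 680 called lower there had -0.47 and -0.51. Each set was picked for its response in 1 genotype, so these medians and interaction counts are a description.

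**Figure D5:**
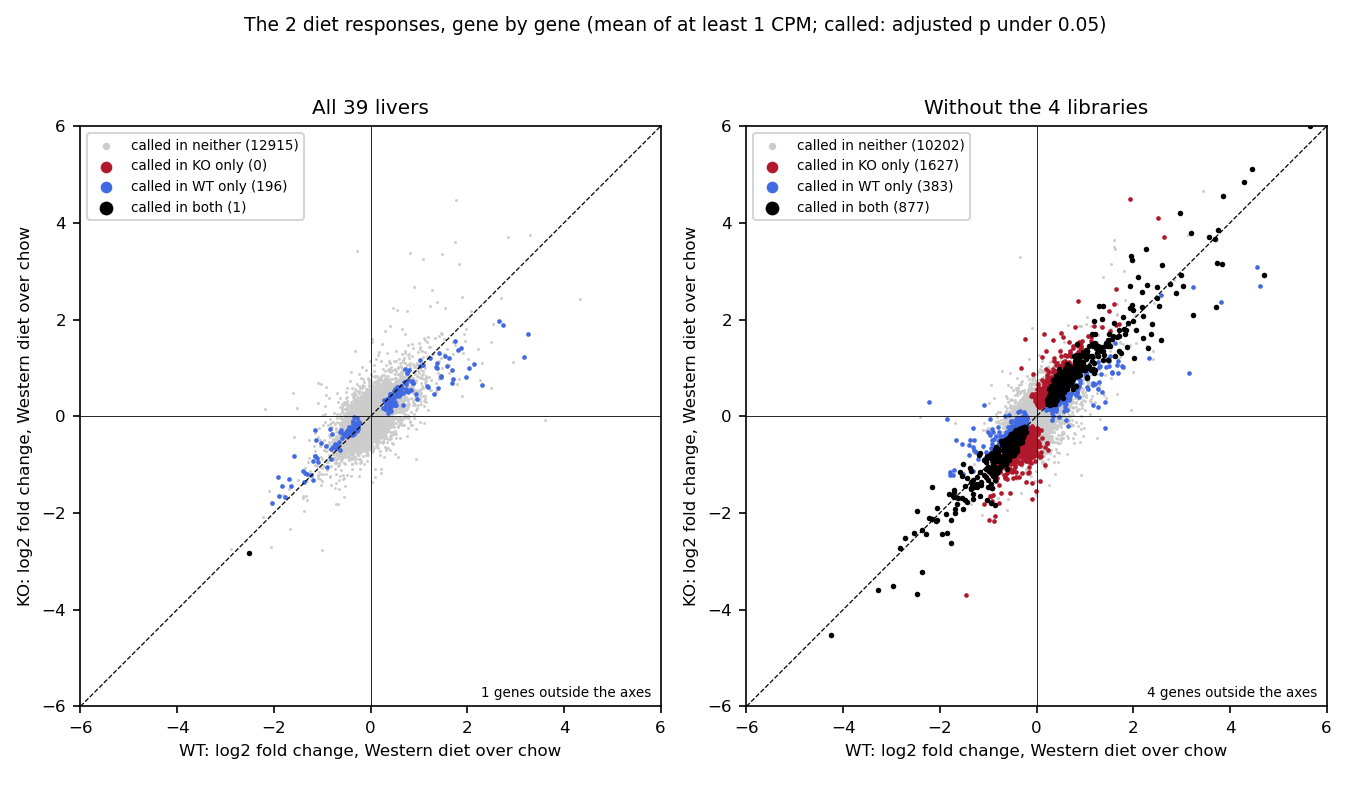
Log2 fold change of Western diet over chow in knockout livers (vertical axis) against that in wildtype livers (horizontal axis), 1 point per gene at a mean of at least 1 CPM, with all 39 livers on the left and without the 4 libraries on the right. Grey points were called in neither genotype, red in knockout alone, blue in wildtype alone and black in both. The called points lie in the 2 quadrants of equal sign, with few exceptions, and the dashed line marks equal responses.

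Adgrf1, an adhesion G protein-coupled receptor, was the 1 gene called in both genotypes with all 39 livers. It was at 0 to 4.55 CPM with a median of 0.753 CPM in knockout Western diet livers, and at 12.5, 9.02, 13.5 and 0.648 CPM in knockout chow livers. It was at 0.396 to 2.61 CPM with a median of 0.890 CPM in wildtype Western diet livers, and at 0.724, 10.7, 5.78, 7.32 and 5.59 CPM in wildtype chow livers. Apart from knockout chow D and wildtype chow A, every chow liver lay above every Western diet liver. Adgrf1 fell by 2.83 ± 0.52 in knockout and by 2.51 ± 0.50 in wildtype livers on the log2 scale with all 39 (adjusted p = 0.0479 and 0.0198), with an interaction of -0.32 ± 0.79. The knockout call was lost without knockout chow A, B or C and without wildtype chow C, D or E, since each of these fits called 0 genes in knockout livers. The wildtype call was lost without wildtype chow B, where 0 genes were called in wildtype livers. No gene was called in both genotypes with the replicate block, with library number as a covariate or with no filter on low counts.

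The largest shared changes without the 4 libraries, among genes called in both genotypes, included low genes of several roles. Ntrk2, the receptor of the neurotrophin BDNF, rose by 4.84 ± 1.03 and 4.29 ± 0.93 (adjusted p = 0.00222 and 0.00344), and Apoa4 by 3.66 ± 0.58 and 3.69 ± 0.51 (adjusted p = 0.000109 and 1.04e-05), with an interaction of -0.03 ± 0.60. Slc2a4, the insulin-responsive glucose transporter of muscle and fat, was at 1.16 to 5.31 CPM in the 14 knockout Western diet livers and at 0.189, 0.543 and 0.254 CPM in knockout chow A, B and C, against 0.850 to 10.5 CPM in the 14 wildtype Western diet livers and 0.123, 0, 0 and 0.266 CPM in wildtype chow B to E. The diets did not overlap in either genotype, and the interaction was -1.79 ± 1.12 (95% interval -4.07 to 0.48), a fitted value that rests on few reads in chow livers. Cfd, the complement protease adipsin, which fat cells secrete, rose by 6.00 ± 1.92 and 5.66 ± 1.65 (adjusted p = 0.0297 in both). It spanned 0.377 to 160 CPM in knockout livers on Western diet and 0.125 to 153 CPM in wildtype livers on it. Chow levels were 0.377 to 1.43 CPM in knockout chow A, B and C and 0.246 to 1.55 CPM in wildtype chow B to E. These ranges of the diets overlapped in both genotypes. Slc13a2, a citrate transporter, fell by 3.59 ± 0.45 and 3.28 ± 0.40 on the log2 scale (adjusted p = 1.40e-06 and 7.66e-07). Enho, which encodes the peptide adropin, fell by 3.67 ± 0.69 and 2.48 ± 0.62 (adjusted p = 0.000777 and 0.0108), with an interaction of -1.19 ± 1.05 (95% interval -3.32 to 0.94).

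The genes nearest to a difference were small changes or low genes, and each had an adjusted interaction p of 0.999 or 1. Smim14, a small membrane protein, was the only gene among the 6 smallest positive interaction p values at 1 CPM or more in both fits. It was at 89.4 to 123 CPM with a median of 101 CPM in knockout Western diet livers, and at 78.2, 86.0, 86.8 and 96.8 CPM in knockout chow livers. It was at 89.2 to 110 CPM with a median of 96.5 CPM in wildtype Western diet livers, and at 117, 112, 96.2, 87.1 and 89.7 CPM in wildtype chow livers. The diets overlapped in both genotypes. Its interaction was 0.31 ± 0.10 with all 39 (95% interval 0.11 to 0.51, unadjusted p = 0.00341) and 0.35 ± 0.10 without the 4 (unadjusted p = 0.00154). Bmp7, a bone morphogenetic protein, and Rad9b, a checkpoint protein, were among the 6 smallest negative ones of genes with an established symbol in both fits. Bmp7 was at 3.35 to 8.21 CPM in knockout Western diet and 7.61, 7.94, 5.26 and 5.83 CPM in knockout chow livers, against 4.17 to 13.7 CPM in wildtype livers on Western diet and 5.94, 3.26, 4.54, 4.72 and 5.01 CPM in those on chow. Its interaction was -0.84 ± 0.27 with all 39 and -0.86 ± 0.27 without the 4 (unadjusted p = 0.00394 and 0.00306). Star, which moves cholesterol into mitochondria, had the smallest p of the negative ones at 1 CPM or more with all 39 livers, at -0.81 ± 0.24 (unadjusted p = 0.00154), with 1.79 to 3.59 CPM in knockout Western diet and 3.71, 4.21, 4.15 and 4.05 CPM in knockout chow livers, against 2.03 to 4.37 CPM in wildtype livers on Western diet and 2.46, 2.16, 2.89, 2.81 and 2.02 CPM in those on chow. The diets did not overlap in knockout livers and overlapped in wildtype livers, and leaving out the 4 libraries gave -0.77 ± 0.26.

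The smallest interaction p at 1 CPM or more in the 35-library fit was that of Iqsec1, an exchange factor of ARF GTPases. It was at 41.0 to 59.2 CPM in the 14 knockout Western diet livers and at 36.3, 30.7 and 28.1 CPM in knockout chow A to C, against 37.8 to 55.2 CPM in the 14 wildtype Western diet livers and 45.9, 40.1, 38.3 and 48.4 CPM in wildtype chow B to E. Its diets did not overlap in knockout livers and overlapped in wildtype livers. The interaction was 0.52 ± 0.14 (unadjusted p = 0.000674), but 0.22 ± 0.15 with all 39 livers (unadjusted p = 0.164). Gpr39, a zinc-sensing receptor, had 1.15 ± 0.34 without the 4 and 0.37 ± 0.35 with all 39. Hnrnpa1, an RNA-binding protein, had -0.45 ± 0.14 and -0.29 ± 0.14. Adamts7, an extracellular protease called lower in wildtype livers alone without the 4 libraries (-1.68 ± 0.26, adjusted p = 4.02e-05, against -0.48 ± 0.31 in knockout livers), had an interaction of 1.20 ± 0.42 there and of 0.66 ± 0.62 with all 39. In the 35-library fit 69 genes called in at least 1 genotype had opposite signs in the genotypes, and none was called in the interaction.

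The erythroid, neutrophil and recruited macrophage lists had the widest differences of list medians between the genotypes with all 39 livers. For erythroid cells the medians with all 39 livers were 2.59 in knockout and 1.18 in wildtype livers. The interaction was positive in 6 of 7 tested genes of this list, against 50.8% of all tested genes. Hbb-bs, a haemoglobin chain, was at 1.17 to 80.4 CPM with a median of 25.5 CPM in knockout Western diet livers, and at 2.01, 3.73, 4.49 and 0.863 CPM in knockout chow livers. It was at 1.52 to 66.5 CPM with a median of 7.07 CPM in wildtype Western diet livers, and at 5.65, 1.60, 1.07, 5.07 and 16.8 CPM in wildtype chow livers. The diets overlapped in both genotypes, and the interaction was 1.86 ± 1.36 (95% interval -0.90 to 4.63). Summed CPM of the listed erythroid genes was 110.5 to 257.9 in knockout Western diet and 91.98 to 127 in knockout chow livers, against 119.3 to 274.2 in wildtype livers on Western diet and 119.1 to 132.7 in those on chow. The part of blood in the tissue in this difference was not tested.

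For stellate cells and fibrosis the interaction was positive in 22 of 23 tested genes with all 39 livers and in 23 of 23 without the 4. Of all tested genes 50.8% and 54.6% were positive there. The list medians were 0.33 and 0.42, and none was called. Median summed CPM of the listed genes was 558.1 on Western diet and 531.1 on chow in knockout livers. In wildtype livers it was 589.9 and 643.9, and the highest sum, 1382, was that of a knockout Western diet liver. Col1a1, a fibrillar collagen of scar, was at 9.95 to 145 CPM with a median of 27.2 CPM in knockout Western diet livers, and at 22.0, 18.6, 17.3 and 26.3 CPM in knockout chow livers. It was at 13.5 to 59.0 CPM with a median of 26.7 CPM in wildtype Western diet livers, and at 21.4, 37.7, 21.3, 17.6 and 30.4 CPM in wildtype chow livers. The diets overlapped in both genotypes, and the interaction was 0.61 ± 0.60 with all 39 (95% interval -0.61 to 1.83). Thbs1, thrombospondin of the same list, was among the 6 smallest positive interaction p values with all 39 livers, at 1.70 ± 0.64 (unadjusted p = 0.0110), with -1.03 ± 0.40 in wildtype and 0.68 ± 0.49 in knockout livers. Members of a list are measured in the same few chow livers and are not independent of each other, so a shared sign is a description.

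Recruited and lipid-associated macrophage genes had list medians of 0.49 in knockout and -0.25 in wildtype livers with all 39. Their interaction was positive in 14 of 15 tested genes, against 50.8% of all tested genes. Neutrophil genes had 0.66 and -0.18 over 7 tested of 14 listed genes, 5 with a positive interaction. They were low, with median summed CPM of 8.99 on Western diet and 6.15 on chow in knockout livers, and of 6.21 and 5.97 in wildtype livers. The highest neutrophil sums were 54.5 on Western diet and 35.4 on chow, both in wildtype livers. No member of either list was called in the interaction. Trem2, a receptor of lipid-laden macrophages, was at 0.556 to 11.5 CPM with a median of 1.27 CPM in knockout Western diet livers, and at 0.566, 0.611, 1.10 and 2.32 CPM in knockout chow livers. It was at 0.380 to 4.51 CPM with a median of 2.12 CPM in wildtype Western diet livers, and at 2.03, 0.801, 0.743, 1.27 and 1.54 CPM in wildtype chow livers. The diets overlapped in both genotypes, and the interaction was 0.47 ± 0.81 with all 39. Summed CPM of the listed macrophage genes was 73.97 to 246 in knockout Western diet and 91.46 to 168.3 in knockout chow livers, against 69.41 to 158.9 in wildtype livers on Western diet and 110.3 to 190.5 in those on chow. The 246 CPM was that of knockout Western diet F, and the next highest of its group, H, had 155.3 CPM. Median sums were 99.66 on Western diet and 140.4 on chow in knockout livers, against 114.1 and 143.7 in wildtype livers. Wildtype chow E was high in acute phase genes, with 2067 CPM of Saa1 and 149 CPM of Lcn2, and wildtype chow A with 1397 and 157 CPM, against 38.3 to 125 CPM and 2.11 to 3.08 CPM in the other 3 wildtype chow livers. Without the 4 libraries, wildtype chow A among them, the medians of the macrophage list were 0.63 in knockout and -0.15 in wildtype livers. The median of its interactions was then 0.80, against 0.50 with all 39. The acute phase list had medians of 0.66 in knockout and 0.23 in wildtype livers with all 39, and of 0.78 and 0.59 without the 4. Its interaction was positive in 21 of 24 genes with all 39 and in 12 of 24 without the 4. The parts of wildtype chow E and knockout Western diet F were not tested. No listed marker was at 0 in every library. The Kupffer cell list had a positive interaction in 12 of 18 genes with all 39 livers and in 14 of 18 without the 4. Of all tested genes 50.8% and 54.6% were positive there. The medians of its interactions were 0.25 and 0.30, and no member was called. Of these 18 genes, Clec4f, Vsig4 and Timd4 had interactions of 0.11 ± 0.37, 0.33 ± 0.53 and -0.01 ± 0.40 with all 39 livers. Stab2, a scavenger receptor of sinusoidal endothelium, had an interaction of -0.44 ± 0.15 with all 39 (95% interval -0.76 to -0.13, unadjusted p = 0.00633) and -0.34 ± 0.17 without the 4, with 49.0 to 82.0 CPM in knockout livers on Western diet and 57.9, 75.5, 75.4 and 75.7 CPM on chow, against 56.8 to 85.2 CPM in wildtype livers on Western diet and 47.7, 53.8, 53.2, 67.6 and 60.8 CPM on chow. Its diets overlapped in both genotypes.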

How the data were processed

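Whole-liver RNA of 39 mice was sequenced in paired-end libraries, 1 per mouse. The deposited values are raw counts per Ensembl gene, which the authors made with STAR 2.7.8a and featureCounts 2.0 on GRCm39, per the submitters' processing notes, which also name FastQC and MultiQC. The annotation release and strand setting are not given in the sources used here, so overlapping and antisense genes cannot be told apart. The table has 55416 genes, and its 37 mitochondrial genes hold 0 counts. Symbols came from a GENCODE annotation on GRCm38, which named 52083 identifiers holding 99.4% of counts.

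Genes were kept by filterByExpr (minimum count 10, minimum total 15) and scaled by TMM. They were tested with edgeR 4.0.16 (robust quasi-likelihood, 1 term per group over all 4 groups) in R 4.3.3, with Benjamini-Hochberg adjustment over all tested genes and a threshold of 0.05. An SE is the size of the log2 fold change over the square root of F, and 95% intervals use the test's degrees of freedom. Error values after ± are SEs, and levels are TMM-scaled CPM. Alternatives used DESeq2 1.42.0 and limma 3.58.1 voom with quality weights, RLE scaling, no filter, the replicate letter as a block, library number as a covariate, and libraries left out. The pipeline was checked on simulated counts. Figures used Python 3.11.15, pandas 2.3.3 and matplotlib 3.10.9.

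The genes compared, the 23 lists (403 members, 395 distinct) and the 4 libraries were chosen with earlier results of these data known, and no p was adjusted over a list. The text names Cd163, landmark genes of the lists, the 6 smallest interaction p in each direction, the 6 largest shared changes in each direction and the 4 smallest interaction p among genes called in 1 genotype, of which examples are given. Genes other than landmarks had a mean of 1 CPM or more over the libraries and an established symbol. The labels do not say whether replicate letters pair the mice across genotypes. Library totals set the precision of low genes, and intervals cover the spread between these mice.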

Additional observations from a re-analysis of the deposited data

Results flagged for a closer look

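Among 51 genes named in the text, 102 chow groups were tested for a library far from the others of its group, and 22 were picked out, 11 of them for knockout chow D and 8 for wildtype chow A. Both belong to the 4 libraries that resembled the other diet, which were picked for their diet readout, and many of the genes were named for large diet changes without them. Their number here was therefore set by that choice. Chance picks out about 1 group in 20 among independent genes, a rate that does not apply to these chosen and correlated ones.

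Knockout chow D was the highest of its group for Abcg5 (296 CPM), Apoa4 (1007 CPM), Cd36 (111 CPM), Cfd (31.2 CPM), Cidec (28.6 CPM) and Cpt1a (360 CPM). It was also the highest for Khk (927 CPM), Ntrk2 (3.83 CPM), Scd1 (26197 CPM) and Slc2a4 (2.81 CPM), and the lowest for Cyp51 (37.4 CPM).

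Wildtype chow A was the highest of its group for Abcg5 (203 CPM), Cfd (6.01 CPM), Ntrk2 (5.65 CPM), Slc2a4 (1.23 CPM) and Tkfc (680 CPM). It was the lowest for Cyp51 (44.3 CPM), Msmo1 (34.5 CPM) and Sqle (8.26 CPM).

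Knockout chow A was the lowest of its group for Saa1 (35.9 CPM) and Stab2 (57.9 CPM), and knockout chow B was the highest for Spic (2.65 CPM). The cause of these values was not tested.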

How the results depend on the processing

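The interaction had 0 called genes in all 28 alternatives, and none of 156 named genes was called in any, although 1 to 29 of them changed the sign of the interaction per alternative. The diet counts moved. In the order knockout, wildtype, averaged, both genotypes and Pearson correlation across genes, the values without the 4 libraries were 2657, 1339, 4622, 902 and 0.7274. DESeq2 called 230 in knockout, 515 in wildtype and 103 in both (164 of the knockout calls higher, 71.3%), and without the 4 libraries 3046, 1679, 4915 and 1117, with 0.724. Limma voom gave 804, 1020, 3622, 379 and 0.6789, and without the 4 libraries 2166, 1855, 4617, 1042 and 0.7147. No filter on low counts gave 0, 44, 1262, 0 and 0.09214, over more low genes. With library number as a covariate the knockout, wildtype and shared counts were 0, 0 and 0. With the replicate block they were 0, 50 and 0, with 0.7245, and without the 4 libraries the block gave 3383, 2460, 5139, 1774 and 0.7605. With the block 38 of the 50 wildtype calls were higher, 76%. The letters do not pair the mice, since same-letter deviations correlated between -0.325 and 0.376 on Western diet and between -0.336 and 0.146 on chow, and 1 of 15 and 0 of 4 letters correlated best with their own.

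Leaving out 1 library, from all 39 or from the 35, gave 0 to 2653 calls in knockout, 0 to 1390 in wildtype, 829 to 4683 averaged and 0 to 783 in both, with correlations of 0.5219 to 0.7359. From all 39, the averaged count fell to 829, 941 and 1375 without knockout chow B, knockout chow C and wildtype chow D, and was 3505 without knockout chow D. The cause was not tested. Few chow livers limit the fits: 3 of knockout and 4 of wildtype remain without the 4 libraries.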

Other observations

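These genes were chosen after their values were seen. Spic, a transcription factor of iron-recycling macrophages, was at 0.452 to 3.80 CPM in knockout Western diet livers and at 1.01, 2.65, 0.933 and 0.701 CPM in knockout chow livers. In wildtype livers it was at 174 and 197 CPM in Western diet L and M, the nearest pair of libraries by their counts, and at 191, 290 and 98.3 CPM in chow B, C and D, against 1.96 and 0.852 CPM in chow A and E. Its high libraries are all wildtype and lie in both diets, and the interaction was 2.33 ± 2.10 (95% interval -1.92 to 6.58).

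BC030867, a gene with no role given here, had the smallest interaction p of all genes with all 39 livers, at -6.47 ± 1.52 (unadjusted p = 0.000132, adjusted p = 1 by edgeR). It was at 8.05, 0.271, 7.29 and 0.216 CPM in knockout chow livers, at no more than 0.397 CPM in knockout Western diet livers, at 7.21 CPM in wildtype Western diet I and at no more than 0.352 CPM in wildtype chow livers. The value thus rests on 3 libraries.

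Tlr4, the receptor of bacterial lipopolysaccharide, was at 0.828 to 2.13 CPM in knockout Western diet and 0.692, 0.407, 0.170 and 1.73 CPM in knockout chow livers, against 0.217 to 1.69 CPM in wildtype livers on Western diet and 2.46, 1.60, 0.660, 1.20 and 1.60 CPM in those on chow. Its interaction was 1.16 ± 0.52 with all 39 livers and 1.83 ± 0.57 without the 4 libraries (unadjusted p = 0.0295 and 0.00279, adjusted p = 1 and 0.999 by edgeR).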
